A study of Mus musculus with 12 samples.

Results

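Neurexins, neuroligins and leucine-rich repeat transmembrane proteins (LRRTMs) are adhesion proteins of the synapse, and their genes were examined here in the forebrain of juvenile and adult Shank3 knock-out (KO) mice and wild-type (WT) mice. The 9 genes were chosen by name: the neurexins Nrxn2 and Nrxn3, the neuroligins Nlgn1, Nlgn2 and Nlgn3, the LRRTMs Lrrtm1, Lrrtm2 and Lrrtm3, and Cntnap2, a distant relative of the neurexins. Each was found once among the 19268 genes of the expression table, by its Ensembl mouse gene identifier. All mice were male C57BL/6J. WT and KO mice were sampled at postnatal day 25 (P25, juvenile) or postnatal day 60 (P60, adult), which gave the groups P25-WT, P25-KO, P60-WT and P60-KO with 3 libraries each. Each library came from its own mouse. KO mice lacked several internal exons on both copies of Shank3, the gene of a scaffold protein in the excitatory postsynaptic density. Forebrain without the olfactory bulb was sequenced as bulk tissue, so fewer cells of a type and less RNA per cell cannot be told apart.

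Neurexins sit mainly in the presynaptic membrane and reach across the cleft to several unrelated partners in the postsynaptic membrane, of which neuroligins and LRRTMs are the best known. Inside the postsynaptic cell, neuroligins bind the scaffolds that hold glutamate or GABA receptors in place, and Shank proteins lie deeper in the same scaffold at excitatory synapses. Nlgn1 is known for excitatory synapses and Nlgn2 for inhibitory ones, while Nlgn3 is found at both and is also made by glia. LRRTMs are postsynaptic proteins of excitatory synapses. Cntnap2 encodes Caspr2, which is best known for clustering potassium channels beside the nodes of Ranvier.

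Promoter sequence is shown for Nlgn2 and Cntnap2, a pair whose RNA differed between the ages in opposite directions over both genotypes. Neither difference passed the test within WT mice, and that of Cntnap2 did not pass in every alternative fit. Each stretch holds the 250 bases before a RefSeq transcription start (GRCm38.p6), written 5′ to 3′ on the strand of the gene, and capitals mark the letters GGGCGG (the GC box, searched on both strands). The Nlgn2 stretch is chr11:69837785-69838034 (minus strand) and the Cntnap2 stretch is chr6:45059811-45060060 (plus strand). Neither overlaps an exon of the GENCODE annotation. The Cntnap2 stretch lies inside the annotated span of its gene, which starts at chr6:45059357, and a second RefSeq window of Cntnap2 is not printed.
Nlgn2: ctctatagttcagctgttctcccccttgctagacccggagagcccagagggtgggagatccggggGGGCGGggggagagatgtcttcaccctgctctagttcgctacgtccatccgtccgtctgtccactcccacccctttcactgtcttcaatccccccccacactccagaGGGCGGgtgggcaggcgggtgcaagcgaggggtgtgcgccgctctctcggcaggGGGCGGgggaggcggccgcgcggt
Cntnap2: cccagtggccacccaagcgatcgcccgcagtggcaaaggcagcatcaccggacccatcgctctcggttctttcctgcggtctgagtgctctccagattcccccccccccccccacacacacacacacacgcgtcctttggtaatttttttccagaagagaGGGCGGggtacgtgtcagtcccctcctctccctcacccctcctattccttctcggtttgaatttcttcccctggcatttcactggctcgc
The Nlgn2 stretch held 3 GC boxes and 18 CpG dinucleotides, at a GC content of 67.6%. The Cntnap2 stretch held 1 GC box and 13 CpG dinucleotides, at a GC content of 59.6%. The second Cntnap2 window (chr6:47244146-47244395) held 0 GC boxes and 3 CpG dinucleotides, at a GC content of 45.2%. A GC box was present in 32.7% of 32851 such windows of all genes, and their median was 6 CpG dinucleotides. RefSeq windows were found for 6 of the 9 genes, and those of Nlgn1, Lrrtm1, Lrrtm3 and Nrxn3 held no GC box. A match of letters is a description and not a binding site.

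The genes lie on 8 chromosomes of the mouse assembly GRCm38 and differ widely in size. Nrxn2 (ENSMUSG00000033768, chr19:6418731-6544169, plus strand) and Nrxn3 (ENSMUSG00000066392, chr12:88722876-90334935, plus strand) are neurexin genes. The neuroligins here are Nlgn1 (ENSMUSG00000063887, chr3:25426215-26332460, minus strand), Nlgn2 (ENSMUSG00000051790, chr11:69823122-69837784, minus strand) and Nlgn3 (ENSMUSG00000031302, chrX:101299168-101325963, plus strand). The LRRTMs here are Lrrtm1 (ENSMUSG00000060780, chr6:77242689-77257791, plus strand), Lrrtm2 (ENSMUSG00000071862, chr18:35209003-35215024, minus strand) and Lrrtm3 (ENSMUSG00000042846, chr10:63928472-64090277, minus strand). Cntnap2 (ENSMUSG00000039419, chr6:45059357-47304213, plus strand) is the longest, at 2245 kb, followed by Nrxn3 at 1612 kb and Nlgn1 at 906 kb. By contrast, Lrrtm2 spans 6.02 kb and Nlgn2 14.7 kb. These 3 LRRTM genes lie inside an alpha-catenin gene, on the opposite strand: Lrrtm1 inside Ctnna2, Lrrtm2 inside Ctnna1 and Lrrtm3 inside Ctnna3.

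The values are normalized counts whose sums over genes were between 30568259 and 32348554 per library. Shank3, the targeted gene, averaged 5174 ± 481 in the P25-KO group and 10779 ± 786 in the P25-WT group, and 4914 ± 339 in P60-KO against 9796 ± 749 in P60-WT (SD, n = 3), with values from 4535 to 5729 in the 6 KO libraries and from 8936 to 11683 in the 6 WT libraries. The 4 forebrain markers, such as Emx1 and Lhx2, were above 0 in every library. Gabra6, a marker of cerebellar granule cells, had 220.8 normalized counts in P60-WT replicate 2 and 68.5 in P60-KO replicate 1, and at most 4.40 in each of the other libraries. For the adhesion genes chosen by name at the start, calls that depended on these 2 libraries are given with and without them. For the other genes named below, results without both libraries together are not given, so their dependence on this pair is not known.

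**Figure D1:**
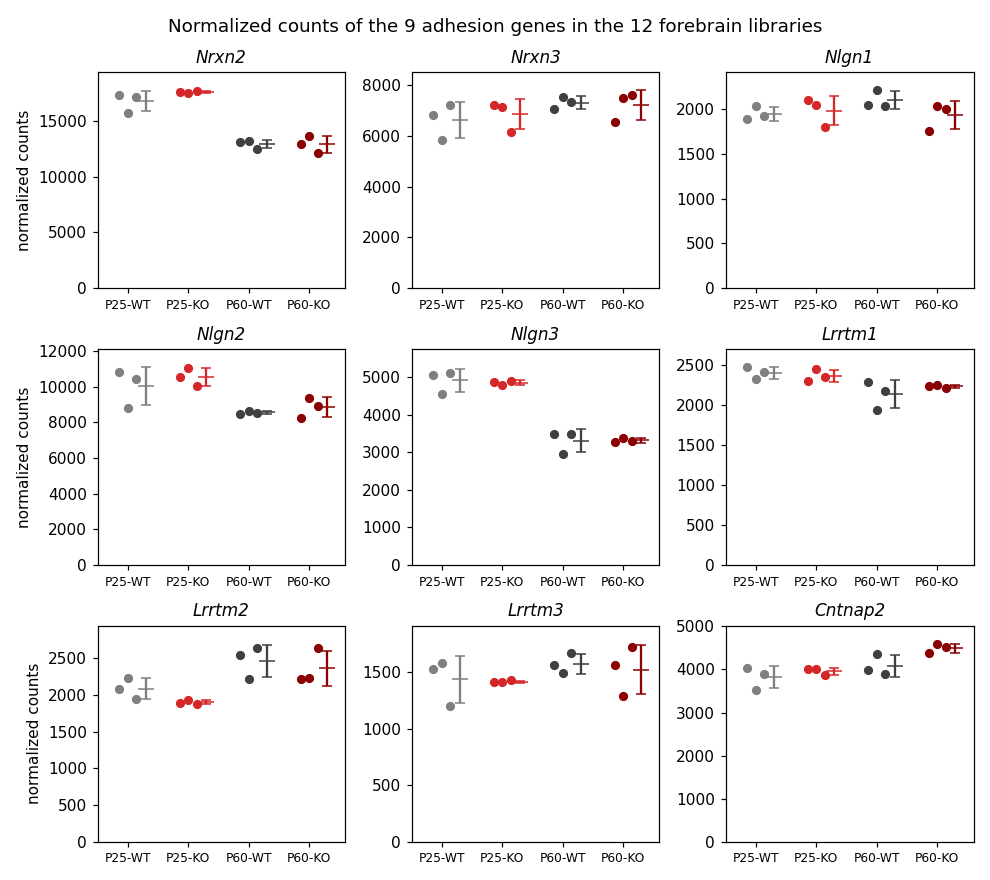
Normalized counts (vertical axes, from 0) of the 9 adhesion genes in the 12 forebrain libraries, 1 panel per gene, with 1 point per library and a bar at the mean ± SD of each group (n = 3). Nrxn2 and Nlgn3 lie lower in all 6 P60 libraries than in all 6 P25 libraries, and WT and KO points of an age lie close together in most panels.

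The abundance of the 9 transcripts was compared per kb of the longest annotated transcript, as the mean level over the 12 libraries. Nrxn2 had the highest level, at 2256 normalized counts per kb, and Nlgn2 the second highest, at 1707. Next came Nrxn3 at 883 and Lrrtm1 at 772. A group of 4 genes had like means over the 12 libraries, with Nlgn3 at 480, Cntnap2 at 416, Lrrtm2 at 388 and Lrrtm3 at 383. Their order differed between the ages. Of these 4, Nlgn3 had the highest mean in both P25 groups (568 in KO and 575 in WT mice). It had the lowest in both P60 groups (389 in KO and 387 in WT mice), where Lrrtm3 was next (392 and 405). Nlgn1 was the lowest, at 169. Nrxn2 stood above Nlgn2, and Nlgn2 above Nrxn3, in all 12 libraries, whereas Nrxn3 stood above Lrrtm1 in 10 of 12, Nlgn3 above Cntnap2 and Cntnap2 above Lrrtm2 in 8 of 12 each, and Lrrtm2 above Lrrtm3 in 6 of 12. These last 4 pairs of neighbours overlapped in their ranges, as did Nrxn2 and Nlgn2. With the length of the merged exons in place of the longest transcript, Nlgn2 came first at 1643 and Nrxn2 second at 1089, and Lrrtm1 at 753 stood above Nrxn3 at 555. Which isoforms were present is not known from these values.

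Over both genotypes, 4 of the 9 genes were lower at P60 than at P25 (Nrxn2, Nlgn2, Nlgn3 and Lrrtm1) and 2 were higher (Lrrtm2 and Cntnap2), by limma on log2(value + 1) with an adjusted p-value under 0.05, while Nrxn3, Nlgn1 and Lrrtm3 did not pass. Nlgn3 fell by 32.2% and Nrxn2 by 24.8%, and Lrrtm2 rose by 20.9%. Across all 17594 genes tested, 37.6% were called in this comparison, 18.3% higher and 19.3% lower, so a call was common among all genes. The median log2 fold change of the 9 genes was 0.033 and that of all genes tested 0.0037. The median size of the change, regardless of sign, was 0.14 for the 9 genes and 0.19 for all genes tested. When each library was scaled to the same total, the share of higher genes among all calls was 59.7% in place of 48.7%, and Lrrtm1 was no longer called (log2 fold change -0.085, adjusted p = 0.158).

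Fewer genes passed within 1 genotype, where 6 libraries were compared. Among WT mice, 2 of the 9 genes were called, Nrxn2 and Nlgn3, both lower at P60, with 8.65% of 17581 genes called in all, 3.66% higher and 4.99% lower. Among KO mice, 5 were called (Nrxn2, Nlgn2 and Nlgn3 lower, Lrrtm2 and Cntnap2 higher), with 20.7% of 17596 genes called, 9.37% higher and 11.3% lower. The libraries of both ages did not overlap for 5 of the 9 genes in WT mice, where 36.0% of all genes tested did not, and for 6 of the 9 in KO mice, where 39.4% did not. The share of higher genes among all calls was 42.3% in WT and 45.3% in KO mice, and 59.3% and 56.5% after scaling to the same total. Without the 2 libraries with the highest Gabra6, the numbers of these genes called were 1 in WT mice (of 375 genes called in all), 3 in KO mice (of 2323) and 4 over both genotypes (of 5597). Over both genotypes, Nrxn2, Nlgn2, Nlgn3 and Lrrtm2 were called with each of the 12 libraries left out in turn.

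**Figure D2:**
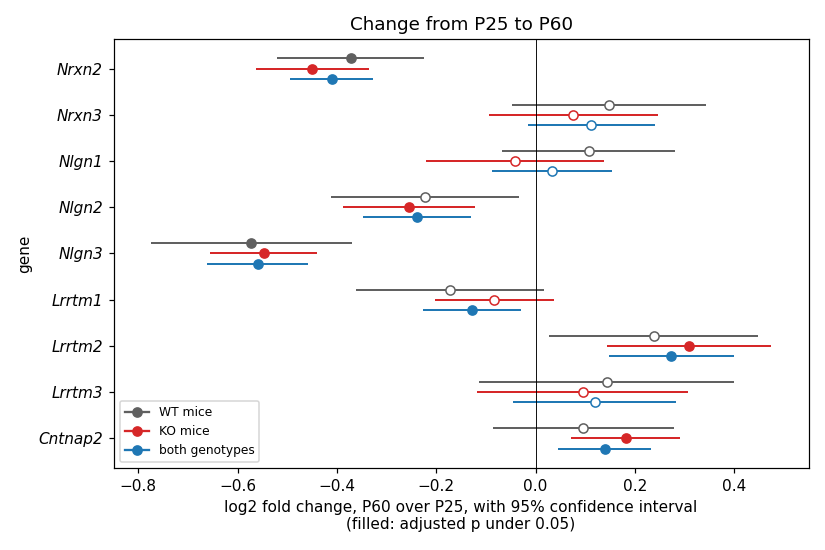
Log2 fold change from P25 to P60 (horizontal axis, below 0 is lower at P60) of the 9 genes in WT mice, in KO mice and over both genotypes, with 95% confidence intervals from limma; filled points have an adjusted p-value under 0.05. Nlgn3 and Nrxn2 lie farthest to the left in both genotypes and Lrrtm2 farthest to the right.

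Of these 2 neurexins, Nrxn2 fell with age and Nrxn3 did not pass the test. Nrxn2, the more abundant, had 17341, 15723 and 17180 normalized counts in the P25-WT libraries and 17636, 17462 and 17647 in the P25-KO libraries. At P60 it had 13069, 13230 and 12491 in WT and 12892, 13617 and 12160 in KO libraries. All 6 P60 libraries lay below all 6 P25 libraries, as also for Nlgn3 and Lrrtm1 and for 10.8% of all genes tested (19.6% with those that lay above). Its log2 fold change was -0.37 in WT mice (SE 0.066, adjusted p = 0.0163), -0.45 in KO mice (SE 0.052, adjusted p = 0.000683) and -0.41 over both genotypes (SE 0.039, adjusted p = 4.69e-06). The WT call was lost without P25-WT replicate 1 (adjusted p = 0.0756), P60-WT replicate 1 (0.0729), P60-WT replicate 2 (0.0542) or P60-WT replicate 3 (0.102), with the log2 fold change between -0.39 and -0.35, and also when limma was run without a variance trend (0.0794). Nrxn2 overlaps the exons of Slc22a12, a transporter gene inside it on the opposite strand, and shared 5.92% of its 31-base words with other genes.

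Nrxn3 had 6818, 5836 and 7198 normalized counts in P25-WT libraries and 7219, 7158 and 6167 in P25-KO libraries. Its P60 values were 7045, 7550 and 7323 in WT and 6556, 7503 and 7595 in KO libraries. The ages overlapped in both genotypes, and the log2 fold change over both was 0.11 (95% confidence interval -0.015 to 0.24, adjusted p = 0.155). Of the summed level of Nrxn2 and Nrxn3 per kb, Nrxn3 made up 24.8% ± 1.29 at P25 and 32.1% ± 1.55 at P60 (SD, n = 6). The lowest P60 share, 30.0%, was above the highest P25 share, 26.1%.

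Of these 3 neuroligins, Nlgn3 and Nlgn2 fell with age and Nlgn1 did not pass the test. Nlgn3 had the largest change of all 9 genes, with 5064, 4564 and 5111 normalized counts in P25-WT libraries and 4871, 4778 and 4902 in P25-KO libraries. The P60 libraries gave 3486, 2948 and 3493 in WT and 3269, 3384 and 3302 in KO libraries. The ages did not overlap. Its log2 fold change was -0.57 in WT mice (SE 0.090, adjusted p = 0.0107), -0.55 in KO mice (SE 0.049, adjusted p = 0.000163) and -0.56 over both genotypes (SE 0.048, adjusted p = 1.68e-06), where it was at rank 85 by p-value among the 17594 genes. In WT mice the call was lost without P25-WT replicate 1 (adjusted p = 0.0549), without P60-WT replicate 3 (0.0543) or with no variance trend (0.0651). Nlgn3 shared 41.9% of its 31-base words with other genes, most of them with Gm21986, a transcript on the same strand that overlaps its exons. Gm21986 had between 86.2 and 381.8 normalized counts per library, and the summed value of both differed between ages by -0.51 (log2, adjusted p = 4.84e-06).

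Nlgn2 had 10818, 8824 and 10462 normalized counts in P25-WT libraries and 10548, 11077 and 10068 in P25-KO libraries. At P60 the values were 8500, 8666 and 8541 in WT and 8269, 9370 and 8943 in KO libraries. Within each genotype every P60 library lay below every P25 library, but P60-KO replicates 2 and 3 were above P25-WT replicate 2. The log2 fold change was -0.24 over both genotypes (SE 0.051, adjusted p = 0.00229) and -0.25 in KO mice (SE 0.060, adjusted p = 0.0157). In WT mice it was -0.22 (SE 0.084, adjusted p = 0.122), and -0.31 without P25-WT replicate 2 (adjusted p = 0.00361). The KO call was lost without P25-KO replicate 2 (adjusted p = 0.0532), without P60-KO replicate 1 (0.0563) or with no variance trend (0.0848).

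Nlgn1 had 1891, 2037 and 1919 normalized counts in P25-WT libraries and 2104, 2048 and 1805 in P25-KO libraries. Its adult values were 2043, 2216 and 2040 in WT and 1752, 2042 and 1999 in KO libraries. The WT libraries of P60 all lay just above those of P25, while the KO libraries of both ages overlapped. Over both genotypes the log2 fold change was 0.033 (95% confidence interval -0.088 to 0.15, adjusted p = 0.676). Nlgn1 shared 9.05% of its 31-base words with other genes, nearly all with A830092H15Rik, which overlaps its exons on the opposite strand. Of the summed level of these 3 neuroligins per kb, Nlgn2 made up 71.4% ± 1.299 at P25 and 73.7% ± 1.01 at P60, Nlgn3 22.1% ± 0.978 and 18.3% ± 1.14, and Nlgn1 6.46% ± 0.596 and 8.04% ± 0.561 (SD, n = 6). Only the Nlgn3 share did not overlap between ages, with a lowest P25 value of 20.5% and a highest P60 value of 19.4%.

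Of Lrrtm1, Lrrtm2 and Lrrtm3, Lrrtm2 rose and Lrrtm1 fell, the latter call being lost under most alternatives. Lrrtm2 had 2082, 2237 and 1944 normalized counts in P25-WT libraries and 1894, 1928 and 1874 in P25-KO libraries. At P60 it had 2545, 2214 and 2635 in WT and 2212, 2229 and 2641 in KO libraries. The ages did not overlap in KO mice, whereas in WT mice P60 replicate 2 lay below P25 replicate 2. The log2 fold change was 0.27 over both genotypes (SE 0.059, adjusted p = 0.00252), 0.31 in KO mice (SE 0.074, adjusted p = 0.0171) and 0.24 in WT mice (SE 0.094, adjusted p = 0.134). In KO mice the call was lost without P25-KO replicate 1 (adjusted p = 0.0523), without P25-KO replicate 3 (0.0526) or with no variance trend (0.0767).

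Lrrtm1 had 2474, 2322 and 2411 normalized counts in P25-WT libraries and 2300, 2451 and 2352 in P25-KO libraries. Its P60 values were 2284, 1945 and 2177 in WT and 2243, 2246 and 2216 in KO libraries. All P60 libraries lay below all P25 libraries, but the lowest P25 library and the highest P60 library were only 2300 and 2284. The log2 fold change over both genotypes was -0.13 (SE 0.046, adjusted p = 0.0410). It was called in 8 of 20 alternative settings, and not without P60-WT replicate 2, which held the lowest value (log2 fold change -0.094, adjusted p = 0.0912), nor without both libraries with the highest Gabra6 (-0.096, adjusted p = 0.128). Leaving out P25-KO replicate 2 or 3, P25-WT replicate 1 or 3, P60-WT replicate 3 or any 1 of the P60-KO libraries also ended the call, as did a fit with no variance trend (0.0594), and over all alternatives the adjusted p was between 0.0307 and 0.158. Lrrtm1 was not called within either genotype.

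Lrrtm3 had 1532, 1580 and 1203 normalized counts in P25-WT libraries and 1415, 1412 and 1430 in P25-KO libraries. The P60 libraries gave 1563, 1499 and 1674 in WT and 1565, 1289 and 1725 in KO libraries. The ages overlapped, and the log2 fold change over both genotypes was 0.12 (95% confidence interval -0.045 to 0.28, adjusted p = 0.241). Of the summed level of these 3 LRRTMs per kb, Lrrtm1 made up 52.9% ± 2.02 at P25 and 47.3% ± 2.41 at P60, and Lrrtm2 23.0% ± 1.02 and 27.2% ± 1.21 (SD, n = 6). In normalized counts, the ratio of Lrrtm2 to Lrrtm1 was from 0.786 to 0.964 in the P25 libraries and from 0.986 to 1.21 in the P60 libraries.

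The alpha-catenin genes that enclose these LRRTMs, which encode linkers between cadherins and actin, were read beside them because the library kit does not mark strand. Over both genotypes the log2 fold change was -0.21 for Ctnna2 (adjusted p = 0.000994), 0.29 for Ctnna1 (adjusted p = 0.00211) and 0.65 for Ctnna3 (adjusted p = 0.00205). Each enclosing gene had the sign of the LRRTM inside it, and reads from opposite strands could not be told apart. Exons overlapped only between Lrrtm2 and Ctnna1, over 95 bases, and Lrrtm1, Lrrtm2 and Lrrtm3 shared 0.327%, 1.07% and 0.281% of their 31-base words with other genes.

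Cntnap2 had 4026, 3531 and 3889 normalized counts in P25-WT libraries and 4010, 4006 and 3866 in P25-KO libraries. At P60 the values were 3997, 4354 and 3883 in WT and 4384, 4584 and 4509 in KO libraries. All 3 P60-KO libraries lay above every other library of the gene, while the WT libraries of both ages overlapped. The log2 fold change from P25 to P60 was 0.18 in KO mice (SE 0.050, adjusted p = 0.0287), 0.097 in WT mice (SE 0.081, adjusted p = 0.458) and 0.14 over both genotypes (SE 0.044, adjusted p = 0.0228). In KO mice the call was lost when any 1 of the 6 libraries was left out, with an adjusted p between 0.0544 and 0.0805, as well as in a fit of all 12 libraries (0.0734), with no variance trend (0.0908) and with the replicate number as a block (0.0799). Over both genotypes it was lost without P60-WT replicate 2 (adjusted p = 0.0543), P60-KO replicate 2 (0.0508) or P25-KO replicate 3 (0.0563), as well as without both libraries with the highest Gabra6 (0.0859).

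**Figure D3:**
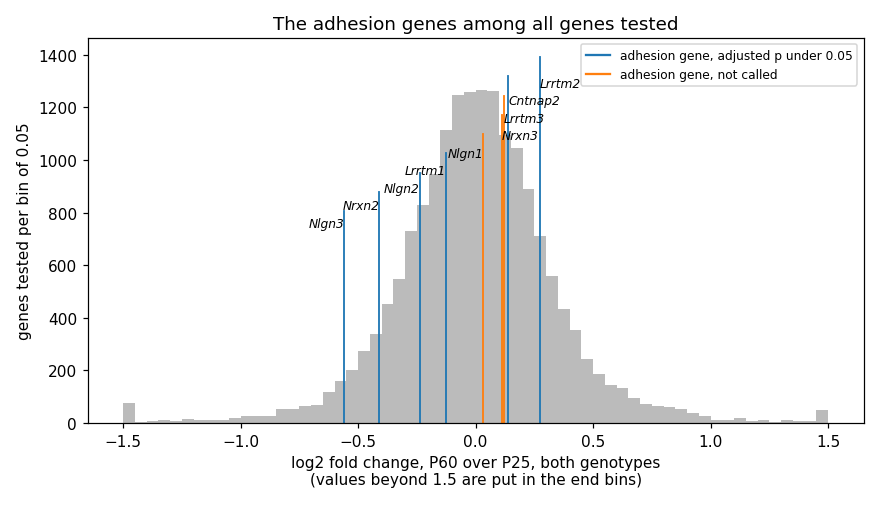
Histogram of the log2 fold change from P25 to P60 over both genotypes (horizontal axis) for all genes tested, with the number of genes per bin of 0.05 on the vertical axis and a line at each of the 9 genes. Nlgn3 at -0.56 and Nrxn2 at -0.41 lie toward the left flank of the distribution, and the other 7 lie between -0.24 and 0.27.

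Markers of the oligodendrocyte lineage moved with age in the same libraries. All 6 oligodendrocyte markers, such as Mbp and Mog, were lower at P60, with a median log2 fold change of -1.26 over both genotypes, and their summed normalized counts were from 367226 to 480416 in the P25 libraries and from 182114 to 208111 in the P60 libraries. All 4 markers of oligodendrocyte precursors (Pdgfra, Cspg4, Gpr17 and C1ql1) were lower too, with a median of -0.61 and sums from 7032 to 8968 at P25 and from 4091 to 4884 at P60. The counts of the other lists stand beside 37.6% called among all genes tested, 18.3% higher and 19.3% lower. Of 6 astrocyte markers, 4 were lower, with sums from 35826 to 40659 and from 31283 to 34475. Of 7 markers of glutamatergic neurons, 1 was higher and 3 were lower, with sums from 120054 to 127144 at P25 and from 108362 to 114287 at P60, and of 8 markers of GABA neurons, 3 were higher and 2 lower. Of 5 microglial markers 1 was lower, of 4 endothelial markers 1 was higher, of the 4 forebrain markers 1 was lower, and none of 3 tested hindbrain markers or 4 olfactory bulb markers was called. The sums of the olfactory bulb markers varied between libraries, from 444 to 927 at P25 and from 419 to 955 at P60. No marker of neurons, glia or endothelium was at 0 in any library. The part of cell composition in the age differences of the 9 genes was not tested.

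Between genotypes, none of the 9 genes was called at either age. At P25 1 gene of 17515 was called, Shank3, which is 0.00571%, and at P60 1 of 17610, again Shank3, which is 0.00568%. The log2 fold changes of KO against WT were between -0.13 (Lrrtm2) and 0.079 (Nlgn2) at P25 and between -0.12 (Nlgn1) and 0.14 (Cntnap2) at P60. The 95% confidence intervals of all 9 genes lay between -0.31 and 0.28 at P25 and between -0.28 and 0.26 at P60, and differed in width from gene to gene. By limma without adjustment, 0 of the 9 genes at P25 and 1 at P60 had a p-value under 0.05, beside 1.36% and 2.50% of all genes tested.

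The gene in question at P60 was Cntnap2, which averaged 4492 ± 101 in KO against 4078 ± 246 in WT libraries (normalized counts, SD, n = 3). All 3 KO libraries lay above all 3 WT libraries, as was so, higher or lower, for 7.79% of genes tested. The log2 difference was 0.14 (SE 0.055), with an unadjusted limma p of 0.0294 and an adjusted p of 0.9995. At P25 the groups were separate for 2 genes, where 4.76% of genes tested were. Nrxn2 was higher in the KO libraries, at 17582 ± 104 against 16748 ± 891, and Lrrtm2 was lower, at 1899 ± 27.0 against 2088 ± 147 (SD, n = 3). Neither passed the test (adjusted p = 0.99996 for both), and P25-WT replicate 2 held the lowest Nrxn2 and the highest Lrrtm2 value of the juvenile libraries.

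**Figure D4:**
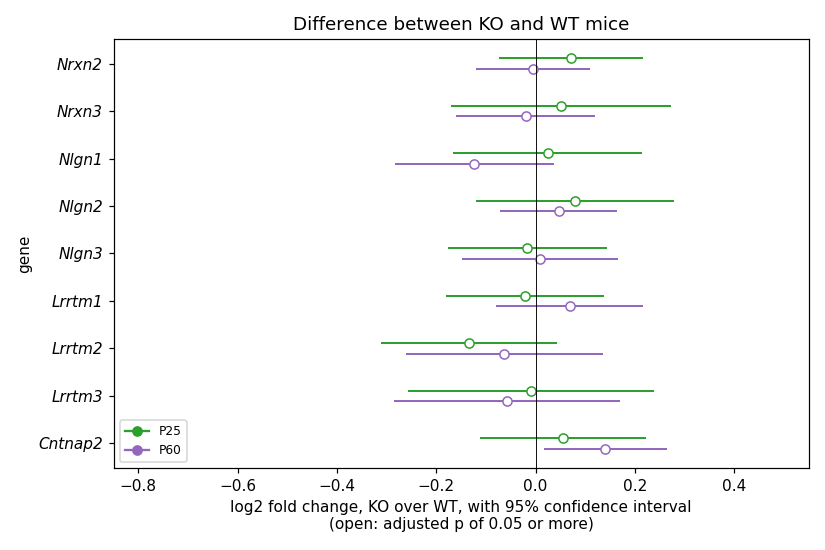
Log2 fold change of KO against WT mice (horizontal axis, above 0 is higher in KO) of the 9 genes at P25 and at P60, with 95% confidence intervals from limma; no point has an adjusted p-value under 0.05. Intervals of 9 genes at P25 and of 8 at P60 cross 0, and that of Cntnap2 at P60 lies above it.

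The difference between genotypes in the change with age was tested as an interaction over all 12 libraries. It was not called for any of the 9 genes, nor for any of 17594 genes (0.00%), with 288 genes (1.64%) at an unadjusted p-value under 0.05, none of them among the 9. The interaction estimates were between -0.15 (Nlgn1) and 0.090 (Lrrtm1), with 95% confidence intervals between -0.39 and 0.33. A call in KO mice and not in WT mice, as for Nlgn2, Lrrtm2 and Cntnap2, is thus not shown to be a difference between the genotypes.

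Other genes of these adhesion pathways were called in both directions with age, and 0 of them by genotype or interaction. Of 21 partners and organizers of neurexins, 3 were higher and 8 lower at P60 over both genotypes, with a median log2 fold change of -0.13, against 18.3% higher and 19.3% lower and a median of 0.0037 among all genes tested. Nxph3, a secreted ligand of alpha-neurexins, fell by 0.65 on the log2 scale (adjusted p = 1.22e-05), Igsf21, a partner of neurexin at inhibitory synapses, by 0.54 (2.72e-06) and Adgrl1, a latrophilin receptor, by 0.25 (0.000147). Cbln4, a secreted bridge between neurexins and postsynaptic receptors, rose by 0.35 (0.00231), Mdga2, which binds neuroligins and blocks neurexin, by 0.29 (0.000970) and C1ql3 by 0.16 (0.0413). The C1ql3 call was lost with no variance trend (0.0638) and when any 1 of P25-KO replicate 1 or 3, P25-WT replicate 1 or 3, P60-KO replicate 2 or 3 and P60-WT replicate 1 or 3 was left out (adjusted p up to 0.106).

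Behind the adhesion proteins lie scaffolds and adaptors in the cytoplasm. Of 18 cytoplasmic partners of neurexins and neuroligins, 5 were higher and 3 lower, with a median of 0.090, against 18.3% higher and 19.3% lower among all genes tested. Lin7b fell by 0.41 on the log2 scale (adjusted p = 0.000352), Dlg4, which encodes the excitatory scaffold PSD-95 that binds neuroligins, by 0.36 (8.23e-06) and Shank1 by 0.27 (0.00278). Magi2 rose by 0.28 (0.00487) and Dlgap1, which links PSD-95 to Shank proteins, by 0.14 (0.0167).

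A second presynaptic adhesion hub is built on receptor phosphatases of the LAR family. Of 16 genes of this hub, 3 were higher and 6 lower, with a median of 0.0076, where 37.6% of all genes tested were called. The postsynaptic Lrfn genes Lrfn3, Lrfn4 and Lrfn1 fell by 0.40, 0.31 and 0.24 on the log2 scale (adjusted p = 8.79e-05, 0.000340 and 0.000388). Ptprd, one of the phosphatases, rose by 0.28 (0.00229), and the postsynaptic members Ntrk3 and Slitrk4 rose by 0.32 (0.000235) and 0.21 (0.0173).

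Contactins are adhesion proteins that pair with members of the Caspr family. Of 16 contactins, Caspr family members and proteins linked to them, such as channels, 9 were higher and 2 lower at P60, with a median of 0.17, against 18.3% higher and 19.3% lower among all genes tested. Cntnap5c rose by 0.65 on the log2 scale (adjusted p = 0.000770), Kcna2, a potassium channel that Caspr2 clusters, by 0.34 (0.000732) and Cntn4 by 0.32 (0.000353). Cntn6 and Cntn1 fell by 0.19 (0.0250) and 0.17 (0.0109), and neither was called when each library was scaled to the same total (0.0817 and 0.0552). Leaving out P25-WT or P60-WT replicate 1, P25-KO replicate 2 or P60-KO replicate 3 also ended the Cntn6 call (adjusted p up to 0.0620). Of 20 other synaptic adhesion genes, 3 were higher and 4 lower, with a median of -0.010, near the 37.6% of all genes tested that were called. Cadm4, Ntng2 and Nfasc fell by 0.48 (2.47e-06), 0.41 (0.000115) and 0.39 (0.000369), and Tenm1, Cadm1 and Tenm4 rose by 0.43 (0.00322), 0.24 (0.00409) and 0.22 (0.0393). The Tenm4 call was lost with no variance trend (0.0787) and without replicate 1 or 3 of P25-KO, replicate 1 or 2 of P25-WT or replicate 3 of either P60 group (adjusted p up to 0.0981).

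**Figure D5:**
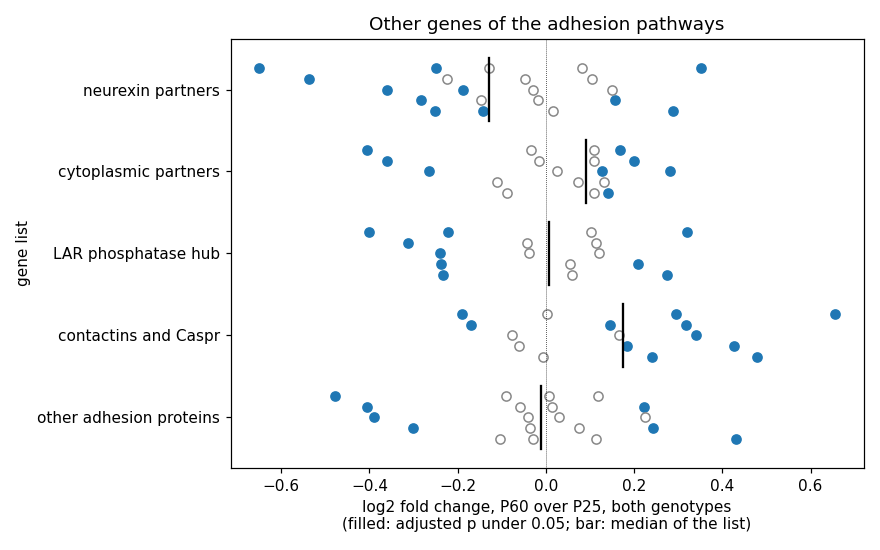
Log2 fold change from P25 to P60 over both genotypes (horizontal axis) of the genes in 5 lists of adhesion pathway genes, 1 point per gene, filled where the adjusted p-value is under 0.05, with a bar at the median of each list. The contactin and Caspr list has its median at 0.17 and the list of neurexin partners at -0.13.

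For each of the 9 genes, the genes with the most similar pattern were found by Pearson correlation of log2(value + 1) over the 12 libraries, which share the age difference and the scaling of the table. Nrxn2 was most like Pld3 (r = 0.993) and Slc22a17 (0.989), and Nlgn3 most like Gpr17 (0.989), one of the oligodendrocyte precursor markers above, and Dpysl2 (0.989). Among all genes, 3.19% had an r over 0.9 with Nrxn2 and 2.74% with Nlgn3. Nlgn2 was most like Lhfpl4 (0.985), whose protein joins Nlgn2 and GABA receptors at inhibitory synapses, and Smpd3 (0.968), with 0.506% of genes over 0.9. After the mean of each group was removed, the correlation of Nlgn2 with Lhfpl4 was 0.954 and that of Nrxn2 with Pld3 0.889.

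Lrrtm2 was most like Dok6 (0.974) and Rprd1a (0.967), Lrrtm1 most like March4 (0.952) and Thop1 (0.934), and Lrrtm3 most like C2cd4d (0.905) and Fgf3 (0.877). Nrxn3 was most like Spock1 (0.957) and Adam22 (0.948), the latter a synaptic protein that binds secreted LGI ligands. Nlgn1 was most like Gucy1b1 (0.851) and Erlec1 (0.843), and Cntnap2, among the genes not passed over as pseudogenes or for identifier-like symbols, most like Mcoln1 (0.883), with 0.0114% of all genes at an r over 0.9. No gene had an r over 0.9 with Nlgn1 in these libraries.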

How the data were processed

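Bulk RNA from the forebrain of 12 mice was sequenced by the study with an Illumina TruSeq kit that does not mark strand. Transcript abundance was estimated by the authors in Salmon, which corrected for GC bias, then passed through tximport to DESeq2 for normalization, as the study's methods describe. The submitters' processing notes list Salmon 1.1.0, DESeq2 1.26.0, R 3.6.2 and GRCm38, and the study's methods name other versions of R and DESeq2. The deposited values are signal on a count scale, normalized over all 12 libraries. No column held whole reads, nor could reads be recovered from it, so the depth behind a value is unknown and no count model, interval or detection limit for counting error was computed. The 3 libraries per group limit the precision. The annotation release is not given in the sources used here. Symbols and positions came from GENCODE M21 (GRCm38), in which 19252 of 19268 identifiers were found, and promoters from RefSeq.

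Groups and replicate numbers came from the sample titles. Linear models were fitted in R 4.3.3 with limma 3.58.1 (lmFit and eBayes, trend on) to log2(value + 1) for every gene whose mean reached 10 in the libraries fitted. A Benjamini-Hochberg adjusted p-value under 0.05 over all genes tested defined a call. Because 1 was added before taking logs, fold changes of low genes are understated. The contrasts were KO against WT at each age, P60 against P25 in each genotype (6 libraries each), and, on all 12 libraries, P60 against P25 with genotype as a covariate and the interaction. All 9 genes passed the filter in every comparison. Levels per kb are normalized counts divided by annotated length. Possible sharing of reads was measured as the share of a gene's 31-base words that also occur in transcripts of any other gene.

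The 9 genes and the gene lists were chosen with earlier results of these data known. Named genes were the 9, Shank3, the alpha-catenins around the LRRTMs, up to 3 genes per direction and list with the smallest adjusted p over both genotypes, and the 2 genes most like each of the 9, passing over pseudogenes and identifier-like symbols. A few of the genes so chosen are not reported here. The lists were 5 of pathway genes and 10 of cell type or tissue markers. Alternatives changed the pseudocount (0.5, 5), the minimum mean (none, 50), the scaling, the variance trend and the libraries fitted, added the replicate number as a block, used merged exons for length or left out 1 library at a time. Summing Nlgn3 with Gm21986 and leaving out both libraries with the highest Gabra6 were alternatives chosen after seeing the data, as was the split of genes by genomic span, under both scalings. The steps were tested on simulated data.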

Additional observations from a re-analysis of the deposited data

How the results depend on the processing

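No alternative called any of the 9 genes between genotypes or in the interaction. Over both genotypes, between 4 and 6 of the 9 were called with age when 1 library was left out, and Nrxn2, Nlgn2, Nlgn3 and Lrrtm2 were called under every alternative run. Within a genotype the counts moved more. Without a variance trend, 0 were called in WT mice (of 192 genes in all) and 2 in KO mice (of 1725). Without both libraries with the highest Gabra6, 1 was called in WT (of 375 in all) and 3 in KO mice (of 2323), and 3 genes in all between genotypes at P60. With 1 library left out, 0 to 3 were called in WT and 3 to 4 in KO mice. All genes called then numbered 122 to 2403 in WT and 2093 to 3230 in KO mice, 0 to 8 between genotypes at P25, 1 to 3 at P60 and 0 to 1 in the interaction. With all 12 libraries in 1 fit, 3442 genes were called in WT mice. Between genotypes, no gene was called by limma without a trend at either age. The cause of these differences was not tested.

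Same-numbered libraries did not deviate together (correlations from -0.072 to 0.17, not above 0.1 for every pair in any comparison). With the replicate block, 0 of the 9 genes were called between genotypes at either age and 2 in WT, 4 in KO mice and 6 over both genotypes, since Cntnap2 in KO mice was lost (adjusted p = 0.0799). With the block, all genes called were 0 at P25, 1 at P60, 1791 in WT mice, 2482 in KO mice and 6731 over both genotypes.

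With merged exons as length, the level per kb was 1089 for Nrxn2, 555 for Nrxn3 and 148 for Nlgn1.

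Signs turned among log2 differences that were not called. Scaling to the same total gave 0.0045 for Lrrtm3 between genotypes at P25. Summing with Gm21986 gave -0.0080 for Nlgn3 at P60 and -0.0035 in the interaction. Without the libraries with the highest Gabra6, values at P60 were 0.010 for Nrxn2, 0.072 for Nrxn3 and -0.062 for Nlgn3, Nlgn1 in KO mice changed with age by 0.028, and the interaction was 0.020 for Nrxn3, 0.025 for Nlgn2 and -0.045 for Nlgn3. With 1 library left out, ranges between genotypes at P25 were -0.037 to 0.13 for Nrxn3, -0.019 to 0.091 for Nlgn1, -0.011 to 0.14 for Nlgn2, -0.069 to 0.013 for Nlgn3, -0.046 to 0.00065 for Lrrtm1 and -0.13 to 0.064 for Lrrtm3. At P60 they were -0.046 to 0.036 for Nrxn2, -0.058 to 0.048 for Nrxn3, -0.073 to 0.050 for Nlgn3 and -0.15 to 0.059 for Lrrtm3. For Nlgn1 with age in KO mice the range was -0.11 to 0.028. In the interaction it was -0.15 to 0.016 for Nrxn3, -0.089 to 0.058 for Nlgn2, -0.056 to 0.077 for Nlgn3, -0.012 to 0.12 for Lrrtm2 and -0.14 to 0.075 for Lrrtm3.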

Other observations

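The 3 longest of the 9 genes, Nrxn3, Nlgn1 and Cntnap2, all had a positive log2 fold change with age over both genotypes, at 0.11, 0.033 and 0.14, of which Cntnap2 was called. Within KO mice the value for Nlgn1 was -0.041, and within WT mice it was 0.11. After these values were seen, all genes tested were divided by the genomic span of the gene. The median log2 fold change was -0.026 for 12874 genes of up to 50 kb, 0.069 for 3735 genes of 50 to 200 kb, 0.078 for 752 genes of 200 to 500 kb and 0.097 for 219 genes over 500 kb. Among the longest genes 32.9% were called higher and 10.96% lower, and among the shortest 14.6% higher and 21.5% lower. The same medians were -0.040, 0.080, 0.089 and 0.11 in WT mice and -0.016, 0.056, 0.057 and 0.063 in KO mice. After scaling all libraries to 1 total, the medians over both genotypes were 0.016, 0.11, 0.12 and 0.14 from the shortest to the longest genes, so the sign for the shortest genes depended on the scaling, in WT (0.011) and KO mice (0.018) too. Then 41.1% of the longest genes were called higher and 7.76% lower, and 18.6% and 17.5% of the shortest. Genes are not replicates, and no test was made of this relation.

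P25-WT replicate 2 held the lowest juvenile value of Nrxn2, Nrxn3, Nlgn2, Nlgn3 and Cntnap2 and the highest of Lrrtm2 and Lrrtm3. P60-KO replicate 1 held the lowest adult value of Nrxn3, Nlgn1, Nlgn2 and Lrrtm2.

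After the mean of each group was removed, Nlgn2 and Nrxn3 varied together over the 12 libraries (Pearson r = 0.864), as did Nlgn3 and Lrrtm1 (0.818) and Nlgn2 and Cntnap2 (0.788), while Nrxn2 and Lrrtm2 varied in opposite directions (-0.795), as did Nrxn2 and Lrrtm3 (-0.764). The libraries share the scaling of the table, and these 5 pairs were picked by size from 36.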
